A study of Homo sapiens with 12 samples.

Results

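The data describe how far RNA levels under an AKT inhibitor and an EZH2 inhibitor given together departed from the level that the changes with each inhibitor alone add up to. The cells were SUM149PT, an established line from a triple-negative inflammatory breast cancer, and the members are all 12 of the 12 libraries of the series, 3 in each of 4 groups. All groups were exposed to vehicle or inhibitor from day -5, were plated on day -1 and received medium with 2% serum on day 0, and RNA was collected 24 h later. The DMSO group received vehicle throughout. The ipatasertib group received 5 µM ipatasertib, the AKT inhibitor, for the last 24 h, the tazemetostat group received 5 µM tazemetostat, the EZH2 inhibitor, from day -5 to collection, and the combination group received tazemetostat over the same days with ipatasertib added for the last 24 h. Exposure to the EZH2 inhibitor was thus longer than exposure to the AKT inhibitor wherever both were present. The labels name the libraries of a group A, B and C and do not say whether they were grown separately, so p-values measure only how far these samples spread, and that spread may be technical.

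AKT is the kinase through which phosphoinositide 3-kinase signals growth and survival; when it is inhibited, FOXO transcription factors enter the nucleus and genes held down by the pathway can rise. EZH2 is the catalytic subunit of Polycomb repressive complex 2, which places the repressive methyl mark on lysine 27 of histone H3, and its inhibition depletes that mark over successive cell divisions. If the inhibitors acted independently on a gene in the log sense, their fold changes would multiply. The departure used here is the log2 level in the combination, minus that with ipatasertib, minus that with tazemetostat, plus that with DMSO. A positive departure means that the combination lay above the multiplied fold changes and a negative departure that it lay below. Either can occur with a rise, a fall or no change against DMSO. In bulk RNA, fewer cells of a kind and less RNA per cell cannot be told apart.

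The libraries held 22355242 to 49970540 gene counts, so that a gene listed at 0 could hold up to 3 counts, or 0.06 to 0.134 CPM (counts scaled to a common library size), by counting error alone. Reads that overlapped no counted feature made up 19.7% ± 0.764 (SD, n = 3) of DMSO libraries and 18.4% ± 0.501 of tazemetostat libraries, but 24.6% ± 0.961 with ipatasertib and 23.8% ± 0.923 with the combination. Epithelial markers were present, with EPCAM at 286 to 414 CPM and CDH1 at 239 to 317 CPM by total counts, and the hormone receptor genes were low, with ESR1 at 3.34 to 5.84 CPM and PGR at 0 to 0.141 CPM. The fibroblast-associated genes DCN (23.8 to 137 CPM) and FAP (37.4 to 60.7 CPM) were detected, as were CD68 (216 to 381 CPM) and CD14 (7.26 to 14.1 CPM) of the leukocyte list and, at lower levels, PTPRC (0.223 to 2.27 CPM) and the endothelial PECAM1 (0.654 to 5.39 CPM). CD3E, ADIPOQ and S100B did not exceed 0.0769 CPM in any library. The summed level of 8 epithelial markers was 3230 to 3390 CPM for DMSO and 2900 to 3210 CPM for tazemetostat. It was 1900 to 2060 CPM for ipatasertib and 1890 to 2010 CPM for the combination. The summed level of 7 fibroblast markers was 170 to 226 CPM without tazemetostat and 66.4 to 89.7 CPM with it. Leukocyte markers, mostly CD68, summed to 346 to 395 CPM for DMSO and 226 to 277 CPM for the combination, and endothelial markers to 0.881 to 1.36 CPM and 5.06 to 6.95 CPM. The part of these markers in the departures was not tested.

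Library A of the tazemetostat group and library B of the combination group differed from the rest of their groups. The chi-square statistic per degree of freedom was 17.3 to 19.1 for the pairs with tazemetostat A and 14.4 to 24.9 for those with combination B, against 2.64 to 6.68 for every other pair within a group. Their deviations from their group means ran opposite to each other, with r = -0.704. That value is across the 10796 genes with a mean log2 level above that of 5 CPM, which are not independent replicates. The deviation followed the GC content of transcripts. Genes were split into 5 bins of GC content. In the lowest bin the median log2 level relative to the gene's mean was -0.03 in tazemetostat A but 0.15 in tazemetostat B and 0.15 in tazemetostat C. Combination B, at 0.12, stood above combination A, at -0.11, and combination C, at -0.03.

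GC content bore directly on the departure. With all 12 libraries its median ran from -0.11 in the lowest bin of transcript GC content to 0.09 in the highest, and without tazemetostat A and combination B from -0.22 to 0.26. A fit with an offset per library for GC content, chosen after the data were seen, brought the medians of all 5 bins to within 0.01 of 0. That offset removes any change linked to GC content, whether technical or biological, and the part of GC content in single genes was not tested. Counts of calls and the departures of named genes with all 12 libraries are therefore set beside those of the fit without tazemetostat A and combination B (10 libraries) and of the fit with the GC offset (12 libraries). The 52 genes chosen by rule for naming kept their call and their sign in both. For the 24 of them named by response class or size, the call and sign with 10 libraries were part of the rule. That outcome was fixed in advance for those genes. All 539 genes called with 12 libraries kept their call and sign with 10, so the outcome is not particular to the other named genes either.

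**Figure D1:**
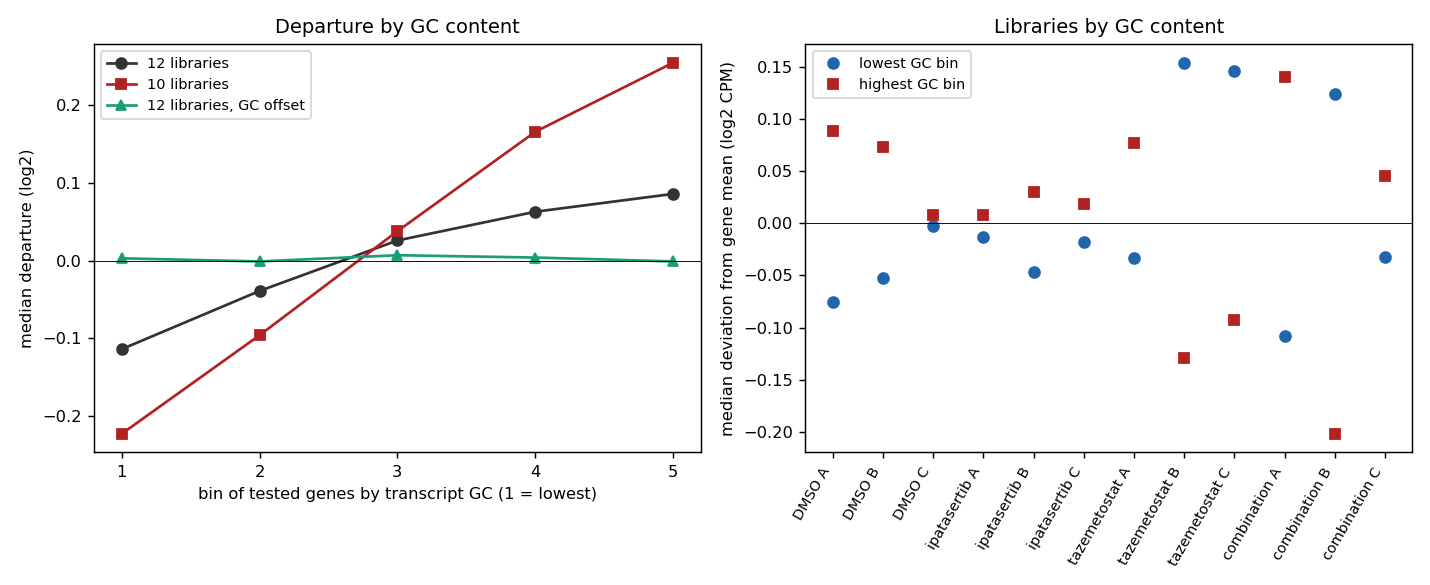
Left, median departure (log2) in each of 5 bins of the genes tested, by GC content of the longest transcript, for the fits with 12 libraries, with 10 libraries and with a GC offset per library. Right, median deviation from the gene mean (log2 CPM) in each library for the lowest and highest bins. The slope was steeper with 10 libraries (-0.22 to 0.26) than with 12 (-0.11 to 0.09) and near 0 with the offset.

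Of 23228 genes in the files, 14874 had enough counts to be tested, and most lay close to the additive level. The median departure was 0.001, the 5th and 95th percentiles were -0.46 and 0.55, and 13415 genes (90.2%) lay within 0.5 log2 of additivity. The edgeR quasi-likelihood test called 539 genes (3.62%) at a Benjamini-Hochberg adjusted p below 0.05, of which 278 (1.87%) lay above the additive level and 261 (1.75%) below it. The median standard error of a departure was 0.12, and 2751 genes had an unadjusted p below 0.05. Departures of 2-fold or more were found in 32 genes above and 11 below. When the departure was tested against 1.5-fold rather than against 0, 16 genes (0.108%) passed, 14 above and 2 below. None of the 539 had a group mean under 3 counts per library.

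The number of calls moved with the libraries used. Without tazemetostat A and combination B 4766 genes (31.8%) were called, 2565 above (17.1%) and 2201 below (14.7%), and they included all 539 with the same sign. The GC offset gave 1841 calls (12.4%), 880 above (5.92%) and 961 below (6.46%), which included 277 of the 278 and 260 of the 261. With the offset and 10 libraries 2624 genes (17.5%) were called, 1263 above (8.42%) and 1361 below (9.07%), including 271 and 256 of them. Leaving out 1 library gave 1046 calls without tazemetostat A (547 above and 499 below, of 15069 genes). Without combination B it gave 2443 (1325 above and 1118 below, of 15058 genes). Leaving out any other library gave fewer calls. They numbered 329 without DMSO A (205 above and 124 below), 278 without DMSO B (169 and 109) and 366 without DMSO C (191 and 175). They were 243 without ipatasertib A (150 and 93), 276 without ipatasertib B (171 and 105) and 389 without ipatasertib C (219 and 170). Without tazemetostat B they were 313 (199 and 114) and without tazemetostat C 282 (173 and 109). Without combination A they were 472 (269 and 203) and without combination C 274 (154 and 120). The share of calls above was 51.6%, and 27.8% (216 above, 561 below) with scaling to total counts alone. No gene called with 12 libraries was called in the opposite direction in any alternative. The alternatives reuse the same libraries, so this is no independent check. The sign of genes that lost their call was examined only for the 52 genes chosen by rule. The counts of gene lists that follow are to be read against these counts and shares of all genes in the same fit and direction. A share near that of all genes is no result about a list.

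Responses to each inhibitor were largely carried over in the presence of the other. Across the 14874 genes, which are not independent, the log2 change with ipatasertib against DMSO and the change of the combination against tazemetostat, which share no library, had r = 0.82 and rho = 0.834. The change with tazemetostat against DMSO and that of the combination against ipatasertib had r = 0.867 and rho = 0.735. The called departures are the genes farthest from the diagonal in the plot of the ipatasertib change without and with tazemetostat, relative to their error.

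**Figure D2:**
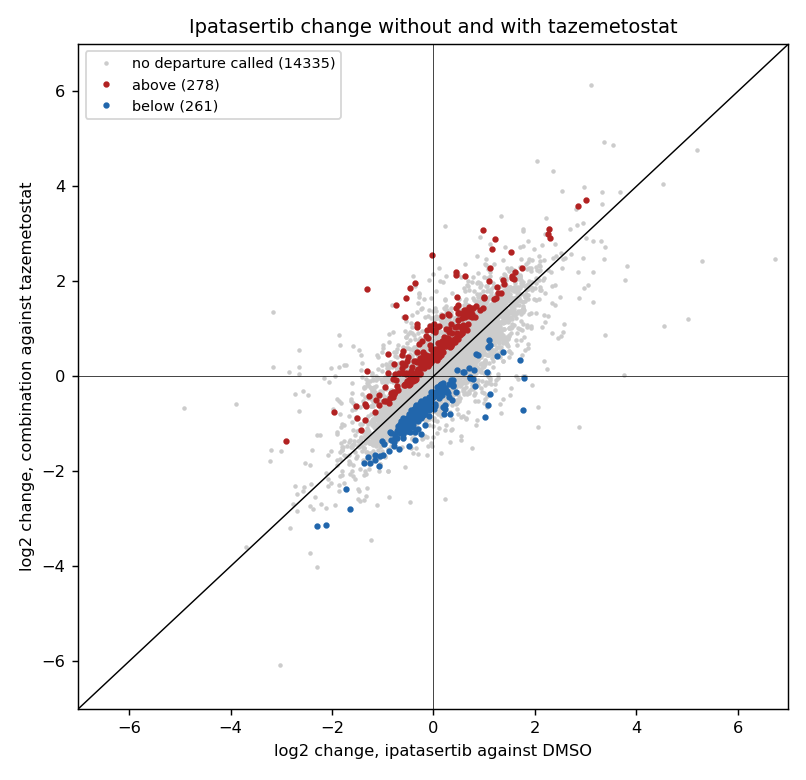
Each point is 1 of 14874 genes, with the log2 change of ipatasertib against DMSO on the x axis and of the combination against tazemetostat on the y axis. The diagonal marks additivity, 278 genes called above it are red and 261 called below it are blue.

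Called departures occurred in genes with each kind of response to the separate inhibitors. Of the 278 above, 58 were lower with both inhibitors alone, 29 higher with both, 61 lower with 1 and not called with the other, 51 higher with 1 and not called with the other, 55 higher with 1 and lower with the other, and 24 called with neither. Of the 261 below, 17 were lower with both, 36 higher with both, 76 lower with 1, 42 higher with 1, 73 higher with 1 and lower with the other, and 17 called with neither. These classes use the same libraries as the departure and are a description.

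Of the DNA replication and S phase genes 20 of 35 were called below the additive level. The list's members encode the helicase loaded at origins, replicative polymerases, clamp loaders and enzymes of nucleotide supply. None was called above, and the median departure was -0.36 against 0.001 for all genes. The 15 members not called also had negative values. With 10 libraries 25 members were called below (14.7% of all genes) and with the GC offset 33 (6.46% of all genes), with none above in either. The median change with ipatasertib was -0.43 without tazemetostat (32 lower, 1 higher; 28.7% and 25.4% of all genes) and -0.76 in its presence (35 lower and 0 higher; 30.8% and 29.8% of all genes). The median change with tazemetostat alone was 0.11 (12 higher, 4 lower; 25.1% and 20.9% of all genes). Fewer members were called without ipatasertib A (8), ipatasertib B (10), DMSO B (11), tazemetostat B (11) or combination C (11). The count was also lower without DMSO A, DMSO C, tazemetostat C or combination A (14 each) or ipatasertib C (16). It was 20 without tazemetostat A and 24 without combination B. Among all genes 93 were called below without ipatasertib A and 1118 without combination B, against 261 with all 12 libraries.

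**Figure D3:**
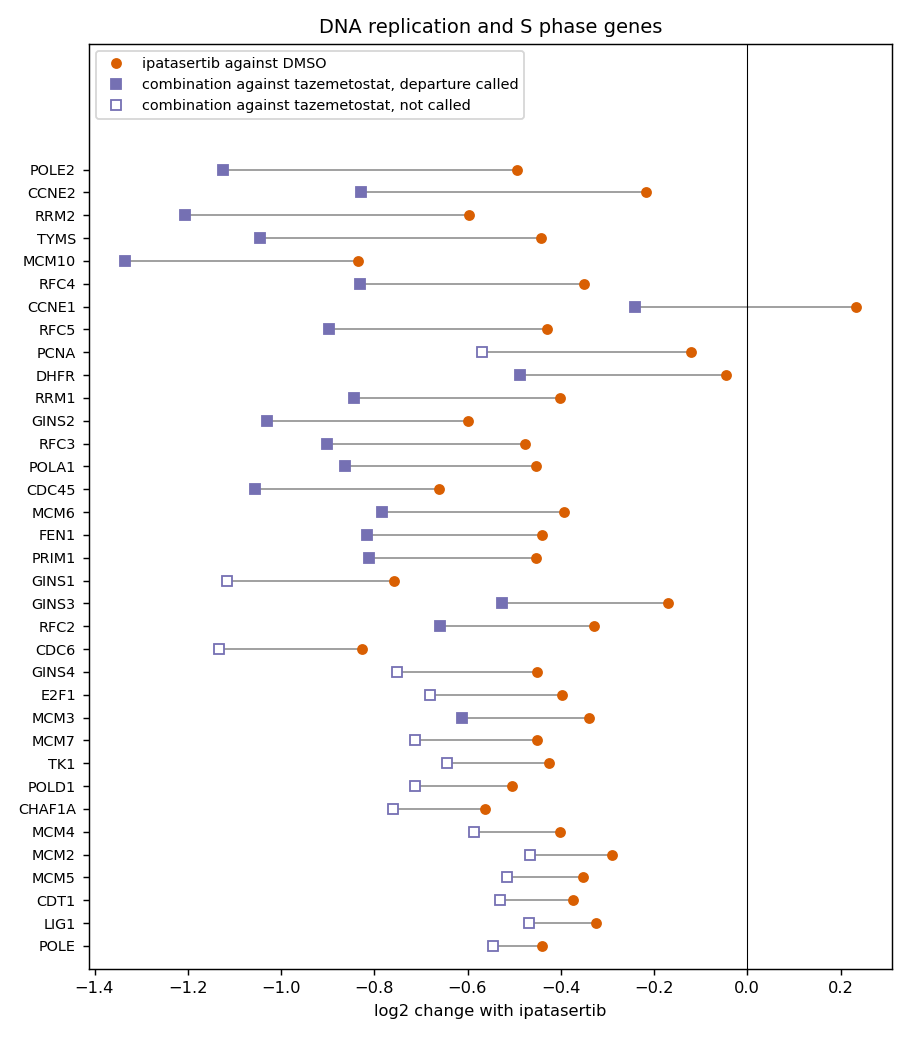
Log2 change with ipatasertib for the 35 DNA replication and S phase genes, against DMSO (circles) and against tazemetostat in the combination (squares; filled where the departure was called, 20 genes). For all 35 genes the square lies to the left of the circle.

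POLE2, the second subunit of DNA polymerase epsilon, stood at 43.5, 42.8 and 42.8 CPM for DMSO, 32.6, 30.6 and 28 for ipatasertib, 47.8, 50.4 and 51.8 for tazemetostat and 19.8, 27.2 and 21.9 for the combination. The combination libraries were the lowest of the 12 and did not overlap with any other group. The level that additive log2 changes predict was 35.4 CPM and the mean was 23.0 ± 3.82 (SD, n = 3), a departure of -0.63 ± 0.12 (log2, SE; adjusted p = 0.00658, edgeR quasi-likelihood test), -0.78 with 10 libraries and -0.60 with the GC offset. CCNE2, a cyclin E that drives entry into S phase, stood at 58.4, 62.0 and 61.1 CPM with tazemetostat and at 32.4, 37.5 and 32.4 with the combination, against 41.8, 42.8 and 44.7 with DMSO and 37.2, 37.9 and 36.1 with ipatasertib. The tazemetostat libraries were the highest, and the combination overlapped with ipatasertib alone. Its departure was -0.61 ± 0.09 (adjusted p = 0.000841), -0.69 with 10 libraries and -0.48 with the GC offset. TYMS, the thymidylate synthase shown here for its promoter and chosen after its values were seen, averaged 41.8 ± 2.11 CPM for DMSO, 30.7 ± 1.76 for ipatasertib, 38.9 ± 2.48 for tazemetostat and 18.8 ± 2.06 for the combination, a departure of -0.60 ± 0.11 (adjusted p = 0.00489; -0.45 with 10 libraries and -0.63 with the GC offset).

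Of 26 mitosis genes 5 were called below and none above, with a median of -0.27. The counts below were 22 with 10 libraries and 17 with the GC offset, with none above in either. CDK1, the kinase that starts mitosis, stood at 190, 190 and 189 CPM for DMSO, 170, 174 and 162 for ipatasertib, 234, 258 and 252 for tazemetostat and 123, 165 and 140 for the combination. The tazemetostat libraries were highest, and combination B overlapped with ipatasertib. The departure of CDK1 was -0.62 ± 0.11 (adjusted p = 0.00251; -0.76 with 10 libraries and -0.49 with the GC offset), and that of KIF11, a spindle motor, was -0.46 ± 0.10 (adjusted p = 0.0118; -0.59 with 10 libraries and -0.35 with the GC offset). The KIF11 call was lost without ipatasertib A. Mitosis calls numbered 17 without combination B, 9 without tazemetostat A and 1 without ipatasertib A, and 2 to 4 without any other library, against 5 with all. Over all genes, 1118 were called below without combination B, 499 without tazemetostat A and 93 without ipatasertib A, against 261 with all libraries.

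Promoters of 2 genes from each list show the sites most often named for these groups. The genes were chosen after their values were seen, from members called below whose only listed promoter held the word. That each promoter holds a site was thus fixed by the choice. Factors of the E2F family bind words such as TTTCCCGC, TTTCGCGC, TTTGCCGC and TTTGGCGC in S phase promoters, and the cell cycle genes homology region (CHR), TTTGAA, is bound by the MuvB complex in mitotic promoters. Each sequence runs from 250 bases before to 50 bases after the RefSeq start on GRCh38.p14, 5′ to 3′ on the gene's strand, with 1 word in capitals on whichever strand it was found: an E2F word in POLE2 and TYMS, and TTTGAA or its reverse complement in KIF11 and NUSAP1. NUSAP1 also holds the E2F word TTTGGCGC, left in lower case. POLE2 lies on the minus strand at chr14:49688165-49688464, TYMS on the plus strand at chr18:657403-657702, KIF11 on the plus strand at chr10:92592880-92593179 and NUSAP1, a spindle protein, on the plus strand at chr15:41332631-41332930.
POLE2: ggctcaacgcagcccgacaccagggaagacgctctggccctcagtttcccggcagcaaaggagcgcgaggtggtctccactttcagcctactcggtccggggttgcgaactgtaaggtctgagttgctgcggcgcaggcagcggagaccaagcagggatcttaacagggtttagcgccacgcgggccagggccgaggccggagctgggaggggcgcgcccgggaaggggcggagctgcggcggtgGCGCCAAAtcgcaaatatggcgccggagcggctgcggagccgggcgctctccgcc
TYMS: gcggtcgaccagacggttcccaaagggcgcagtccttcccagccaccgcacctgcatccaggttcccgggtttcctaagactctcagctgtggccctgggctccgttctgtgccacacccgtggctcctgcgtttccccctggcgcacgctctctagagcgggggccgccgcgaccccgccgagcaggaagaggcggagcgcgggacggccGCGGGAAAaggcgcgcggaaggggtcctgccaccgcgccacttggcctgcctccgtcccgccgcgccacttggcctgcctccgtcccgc
KIF11: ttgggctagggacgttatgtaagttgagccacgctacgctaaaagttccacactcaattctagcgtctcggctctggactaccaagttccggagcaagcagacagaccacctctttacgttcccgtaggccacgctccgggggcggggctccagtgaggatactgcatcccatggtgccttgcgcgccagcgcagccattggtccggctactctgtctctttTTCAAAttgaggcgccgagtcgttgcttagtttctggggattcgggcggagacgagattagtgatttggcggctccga
NUSAP1: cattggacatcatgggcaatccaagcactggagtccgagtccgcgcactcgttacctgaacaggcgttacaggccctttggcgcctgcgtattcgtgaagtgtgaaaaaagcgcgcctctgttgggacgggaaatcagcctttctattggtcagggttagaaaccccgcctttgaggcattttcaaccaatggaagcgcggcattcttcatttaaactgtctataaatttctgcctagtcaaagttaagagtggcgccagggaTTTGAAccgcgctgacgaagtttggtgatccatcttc
The E2F words were searched on both strands, and none of the words searched lies within another. They matched 17 of 38 promoters of the S phase list (44.7%), 4 of 24 of the mitosis list (16.7%) and 41 of 323 of the genes called below (12.7%), against 1164 of the 35116 promoters of the same length in the table (3.31%). TTTGAA matched 15 of 24 mitosis promoters (62.5%), 1 of 38 S phase promoters (2.63%) and 63 of 323 of the genes called below (19.5%), against 15.2% of all. The FOXO word GTAAACA matched 5 of 50 promoters of the PI3K-AKT-FOXO list (10%), 2 of 38 of the S phase list, 1 of 24 of the mitosis list and 5 of 323 of the genes called below (1.55%), against 3.42% of all. The EGR word GCGTGGGCG matched none of 38 S phase promoters, 1 of 24 mitosis promoters, 1 of 50 in the PI3K-AKT-FOXO list and 7 of 323 of the genes called below (2.17%), against 0.795% of all. The S phase list supplied 20 of the genes called below. Only 74.5% of the genes called above and 75.4% of all genes tested could be matched to a promoter, so a share for either is void. The shares of all promoters include genes that were not tested here. They are thus not a background of the tested genes from which the called genes come.

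EZH2, the target of tazemetostat, was the 1 of 11 Polycomb repressive complex 2 subunits called with all 12 libraries. With 10 libraries 7 were called below and 1 above, and with the GC offset 1 below. Called below were 6 without combination B, 2 without tazemetostat A and 0 or 1 without any other library. EZH2 stood at 62.0, 60.8 and 69.0 CPM for DMSO, 47.8, 49.4 and 46.3 for ipatasertib, 67.4, 71.7 and 70.2 for tazemetostat and 36.6, 42.9 and 36.0 for the combination. The combination libraries were the lowest and did not overlap with the others. The departure was -0.44 ± 0.10 (adjusted p = 0.018, edgeR quasi-likelihood test), -0.53 with 10 libraries and -0.40 with the GC offset, and the call was lost without DMSO A or B, ipatasertib A or B, tazemetostat B or C, or combination C. MTBP, which binds MDM2, was called with neither inhibitor alone and had a departure of -0.75 ± 0.17 (adjusted p = 0.0185; -0.95 with 10 libraries and -0.60 with the GC offset), with combination libraries at 7.52, 12.4 and 10.7 CPM against 14.1 to 19.7 elsewhere. Its call was lost without DMSO A or B, ipatasertib A or B, or tazemetostat B or C.

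Of 30 immediate early and ERK feedback genes 6 were called above and none below, with a median of 0.23. Immediate early genes are induced within minutes by ERK signalling, and the list also holds the feedback inhibitors of that pathway. With 10 libraries 18 were called above and 2 below, and with the GC offset 10 and 2. The count above was 17 without combination B, 9 without tazemetostat A and 5 to 7 without any other library. Over all genes, 1325 were called above without combination B and 547 without tazemetostat A, against 278 with 12 libraries. EGR1, a zinc finger transcription factor, stood at 45.7, 43.4 and 39.2 CPM for DMSO, 14.3, 19.7 and 17.9 for ipatasertib, 64.7, 56.0 and 53.0 for tazemetostat and 64.1, 55.2 and 68.2 for the combination. Ipatasertib lowered EGR1 by 1.32 on the log2 scale against DMSO (adjusted p = 6.7e-09), and in the presence of tazemetostat its change was 0.11 (adjusted p = 0.341). The combination overlapped with tazemetostat alone, where additivity predicts 23.4 CPM, and the departure was 1.43 ± 0.15 (adjusted p = 8.08e-06), 1.63 with 10 libraries and 1.38 with the GC offset. EGR2, a related factor, stood at 0.262 to 0.558 CPM in the 9 other libraries and at 2.97, 2.72 and 3.49 CPM with the combination. Neither inhibitor alone changed it past the threshold, and its departure was 2.58 ± 0.40 (adjusted p = 0.000841; 2.69 with 10 libraries and 2.54 with the GC offset).

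Genes of PI3K-AKT-FOXO feedback departed in 5 of 30 cases, all above, with a median of 0.12. With 10 libraries 13 were above and 6 below, and with the GC offset 10 and 2. The count above was 10 without combination B and 3 without DMSO A, ipatasertib A, tazemetostat C or combination C. FBXO32, a muscle-atrophy ubiquitin ligase and FOXO target, stood at 80.8, 78.1 and 76.0 CPM for DMSO, 87.3, 86.7 and 89.5 for ipatasertib, 21.8, 23.6 and 24.1 for tazemetostat and 51.5, 59.5 and 57.5 for the combination. The 4 groups did not overlap. Ipatasertib raised FBXO32 by 0.17 without tazemetostat (adjusted p = 0.0339) and by 1.28 with it, a departure of 1.11 ± 0.09 (adjusted p = 7.62e-07; 1.05 with 10 libraries and 1.15 with the GC offset). PIK3IP1, an inhibitor of phosphoinositide 3-kinase, averaged 2.05 ± 0.207 CPM for DMSO, 9.88 ± 0.412 for ipatasertib, 1.91 ± 0.477 for tazemetostat and 15.1 ± 0.831 for the combination, a departure of 0.73 ± 0.20 at the threshold (adjusted p = 0.05; 0.89 with 10 libraries and 0.68 with the GC offset). BMF, which promotes apoptosis and was the 1 of 15 BCL2 family genes called (7 above with 10 libraries and 1 with the GC offset), averaged 5.49 ± 0.484, 16.6 ± 0.798, 6.26 ± 0.334 and 25.8 ± 1.01 CPM in the same order, a departure of 0.45 ± 0.12 (adjusted p = 0.047; 0.54 with 10 libraries and 0.40 with the GC offset). The calls of PIK3IP1 and BMF were lost in 9 of the 12 fits that left out 1 library. Both were also lost with RLE or total-count scaling and with limma voom, and that of BMF with no filter on low counts. The 9 fits were those without DMSO A or C, any ipatasertib library, tazemetostat C, or combination A or C for both, and without DMSO B for PIK3IP1 or tazemetostat B for BMF.

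**Figure D4:**
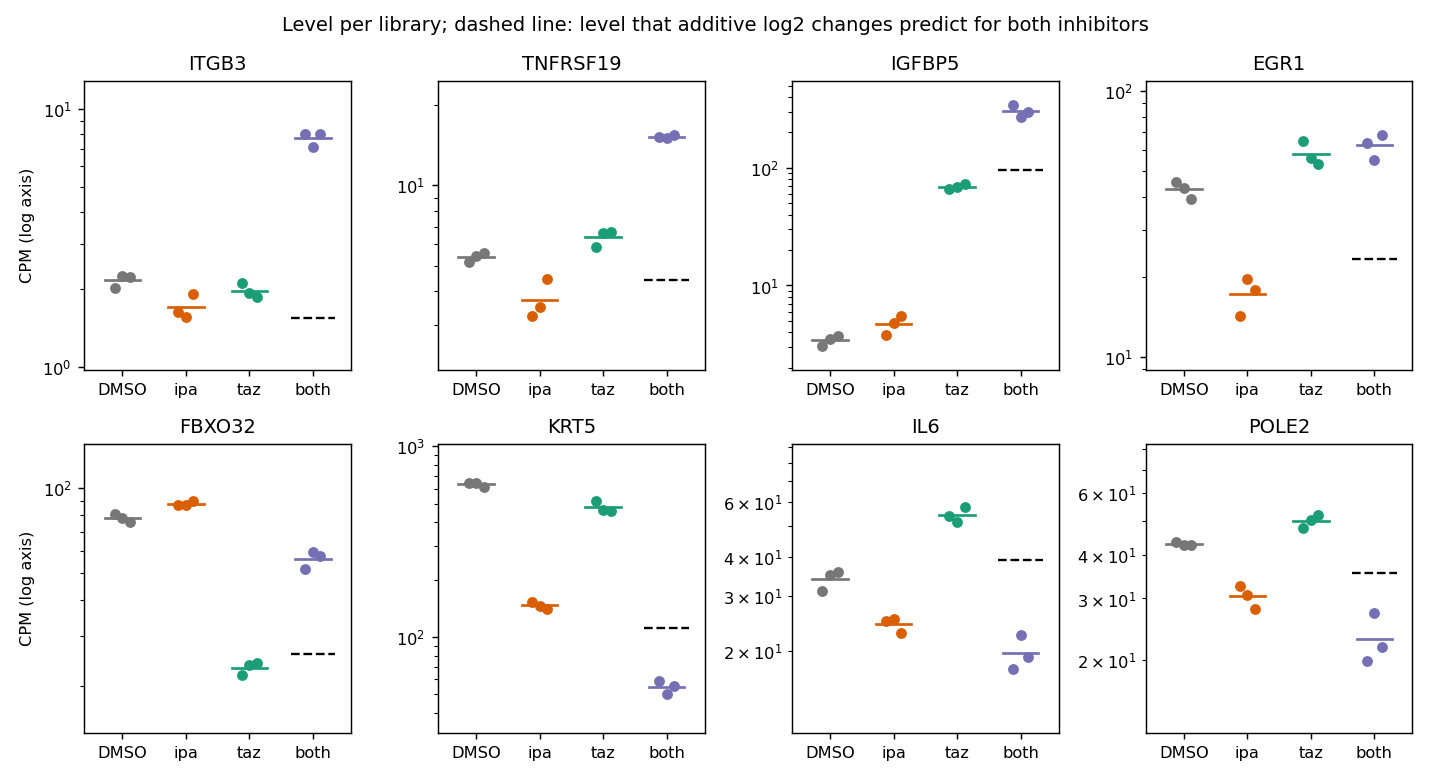
CPM on log axes in each library (points; bars are group means, n = 3) for 8 genes with DMSO, ipatasertib (ipa), tazemetostat (taz) and the combination (both). The dashed line is the level predicted by additive log2 changes, which the combination exceeded for ITGB3, TNFRSF19, IGFBP5, EGR1 and FBXO32 and fell short of for KRT5, IL6 and POLE2.

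In the list of epithelial-mesenchymal transition and matrix genes 7 of 33 were called above and 1 below, with a median of 0.18, and the counts were 17 and 2 with 10 libraries and 10 and 2 with the GC offset. The count above was 16 without combination B and 4 without ipatasertib A or combination C. ITGB3, the beta subunit of the vitronectin receptor, is not a member of the list and was named by its response class and size. It stood at 2.02, 2.26 and 2.22 CPM for DMSO, 1.63, 1.56 and 1.91 for ipatasertib, 2.12, 1.93 and 1.87 for tazemetostat and 8.02, 7.14 and 8.03 for the combination. The combination libraries lay above all others, and neither inhibitor alone passed the threshold (log2 changes of -0.35, adjusted p = 0.0576, and -0.13, adjusted p = 0.464). The departure of ITGB3 was 2.33 ± 0.19 (adjusted p = 7.62e-07), or 5.02-fold, with 2.45 in 10 libraries and 2.28 with the GC offset.

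THBS1, the matrix glycoprotein thrombospondin, stood at 4384, 4229 and 4149 CPM for DMSO, 4220, 4248 and 4591 for ipatasertib, 821, 913 and 833 for tazemetostat and 1722, 1620 and 1738 for the combination. Ipatasertib alone left it at 4353 ± 206 CPM, overlapping with DMSO, while in the presence of tazemetostat it was raised by 0.98 on the log2 scale, a departure of 0.95 ± 0.08 (adjusted p = 7.62e-07; 0.97 with 10 libraries and 0.96 with the GC offset). SNAI2, a repressor of epithelial genes, lay below additivity, with 8 ± 0.421, 6.00 ± 0.332, 9.14 ± 0.535 and 4.51 ± 0.344 CPM in the order DMSO, ipatasertib, tazemetostat and combination (departure -0.60 ± 0.14, adjusted p = 0.0207; -0.57 with 10 libraries and -0.53 with the GC offset). The SNAI2 call was lost without DMSO A or B, ipatasertib A or C, or tazemetostat C.

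IGFBP5, a secreted binder of insulin-like growth factors that is abundant in the involuting mammary gland, stood at 3.05, 3.49 and 3.69 CPM for DMSO, 3.81, 4.79 and 5.52 for ipatasertib, 66.2, 69.2 and 72.7 for tazemetostat and 342, 271 and 298 for the combination. No group overlapped with another. Against DMSO, the log2 change was 0.44 with ipatasertib (adjusted p = 0.0145) and 4.36 with tazemetostat (adjusted p = 7.02e-16), while ipatasertib in the presence of tazemetostat raised it by 2.13. The departure was 1.69 ± 0.17 (adjusted p = 5.41e-06; 1.75 with 10 libraries and 1.65 with the GC offset). In the mammary involution list 5 of 27 were called above and 1 below, with a median of 0.20, and 12 and 2 with 10 libraries and 10 and 1 with the GC offset. Counts above were 11 without combination B, 9 without tazemetostat A, 3 without DMSO A, ipatasertib C or tazemetostat B, 2 without DMSO B, DMSO C or ipatasertib B, and 1 without ipatasertib A, tazemetostat C or combination C.

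TNFRSF19, a receptor of the tumour necrosis factor family, stood at 5.16, 5.41 and 5.56 CPM for DMSO, 3.24, 3.50 and 4.43 for ipatasertib, 5.89, 6.61 and 6.67 for tazemetostat and 15.3, 15.0 and 15.4 for the combination. The combination libraries lay above all others, and the departure was 1.80 ± 0.15 (adjusted p = 8.44e-07; 1.78 with 10 libraries and 1.86 with the GC offset). THBD, the thrombin receptor thrombomodulin, stood at 8.77 to 11.7 CPM in the DMSO libraries and 7 to 8.52 CPM in the ipatasertib libraries. It reached 16.5 to 17.5 CPM with tazemetostat and 35.6 to 37.5 CPM with the combination (departure 1.42 ± 0.14, adjusted p = 4.58e-06; 1.41 with 10 libraries and 1.36 with the GC offset). INHBB, a subunit of activin and inhibin, was raised by each inhibitor and reached 15.5, 16.6 and 14.3 CPM with both against 6.67 predicted (departure 1.21 ± 0.18, adjusted p = 0.000487; 1.19 with 10 libraries and 1.14 with the GC offset). FZD7, a Wnt receptor, averaged 23.4 ± 1.08, 32.7 ± 1.69, 20.7 ± 2.14 and 58.4 ± 1.98 CPM in the order DMSO, ipatasertib, tazemetostat and combination (departure 1.01 ± 0.11, adjusted p = 1.18e-05; 0.97 with 10 libraries and 0.96 with the GC offset).

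S1PR1, a receptor for sphingosine-1-phosphate, was lowered by each inhibitor but not further by both. It stood at 7.71, 9.08 and 7.88 CPM for DMSO, 4.34, 4.91 and 4.04 for ipatasertib, 4.78, 3.98 and 4.04 for tazemetostat and 5.26, 6.47 and 5.96 for the combination. The combination libraries lay above those of each inhibitor and below those of DMSO, where 2.30 CPM was predicted (departure 1.36 ± 0.17, adjusted p = 8.68e-05; 1.40 with 10 libraries and 1.34 with the GC offset). CYP4F3, which inactivates leukotrienes, fell with ipatasertib from 5.82 ± 0.825 to 3.90 ± 0.758 CPM and stood at 8.43 ± 0.108 with the combination (departure 1.13 ± 0.20, adjusted p = 0.00253; 1.24 with 10 libraries and 1.15 with the GC offset). GLP2R, the receptor for a glucagon-like peptide, fell with each inhibitor and lay below additivity at 2.42 ± 0.358 CPM against 4.17 predicted (departure -0.80 ± 0.17, adjusted p = 0.0109; -0.91 with 10 libraries and -0.84 with the GC offset), a call lost without combination C. PID1, an adaptor with a phosphotyrosine interaction domain, stood at 77.1, 77.9 and 78.3 CPM with the combination against 137 to 194 CPM elsewhere (departure -0.80 ± 0.08, adjusted p = 4.09e-06; -0.80 with 10 libraries and -0.82 with the GC offset).

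In the basal and myoepithelial list 3 of 29 were called above and 3 below, with a median of -0.08, and 10 and 7 with 10 libraries and 4 and 8 with the GC offset. Without combination B 5 were above. KRT5, a basal keratin, stood at 642, 646 and 610 CPM for DMSO, 153, 146 and 140 for ipatasertib, 520, 462 and 458 for tazemetostat and 58.5, 50.3 and 55.1 for the combination. The 4 groups did not overlap. Tazemetostat lowered it by 0.40 on the log2 scale without ipatasertib (adjusted p = 4.58e-05) and by 1.42 with it (adjusted p = 2.46e-12), a departure of -1.02 ± 0.09 (adjusted p = 1.76e-06; -0.89 with 10 libraries and -1.09 with the GC offset). KRT5 shares sequence with other type II keratins, and how the counting split such reads is not given in the sources used here, so its level is uncertain. TP63, a basal transcription factor, was raised by each inhibitor but not further by both, at 15.9 ± 2.35, 26.1 ± 1.59, 27.9 ± 2.62 and 27.2 ± 3.03 CPM in the order DMSO, ipatasertib, tazemetostat and combination (departure -0.76 ± 0.14, adjusted p = 0.00489; -0.91 with 10 libraries and -0.72 with the GC offset). EGFR, the epidermal growth factor receptor, averaged 280 ± 22.1 CPM with the combination against 176 ± 6.96 to 215 ± 6.82 elsewhere (departure 0.52 ± 0.09, adjusted p = 0.00146; 0.58 with 10 libraries and 0.51 with the GC offset).

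In the luminal list 4 of 21 were called above and none below, with a median of 0.17, and 10 and 2 with 10 libraries and 7 and 0 with the GC offset. The count above was 7 without combination B and 2 without DMSO B, tazemetostat C or combination C. ELF3, an epithelial ETS factor, stood at 19.6, 17.8 and 20.6 CPM for DMSO, 36.4, 41.2 and 38 for ipatasertib, 29.7, 27.2 and 25.6 for tazemetostat and 92.1, 81.5 and 89.9 for the combination. The groups did not overlap, and the departure was 0.68 ± 0.11 (adjusted p = 0.00116; 0.81 with 10 libraries and 0.62 with the GC offset). GATA3, a regulator of luminal identity, stood at 34.4 to 35.7, 50.9 to 54.1, 40.2 to 40.9 and 84.2 to 90.2 CPM in the order DMSO, ipatasertib, tazemetostat and combination (departure 0.50 ± 0.08, adjusted p = 0.00146; 0.52 with 10 libraries and 0.44 with the GC offset).

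Among developmental transcription factors, many of which are Polycomb targets, 3 of 59 outside the HOX clusters (5.08%) and 1 of 23 HOX genes (4.35%) were called, all above, against 3.62% of all genes. With 10 libraries 8 of the 59 were above and 2 below, as were 4 and 0 of 24 HOX genes, and with the GC offset the counts were 4 and 3 of 59 and 2 and 0 of 23. Outside the HOX clusters 5 were above without combination B and 1 without DMSO B, ipatasertib A or B, tazemetostat B or C, or combination C, and 2 HOX genes were above without combination B. SOX9, a progenitor factor, stood at 155, 162 and 152 CPM with DMSO, 150, 153 and 161 with tazemetostat, 241, 243 and 242 with ipatasertib and 374, 376 and 358 with the combination. Tazemetostat alone overlapped with DMSO, and the departure was 0.63 ± 0.07 (adjusted p = 6.06e-05; 0.61 with 10 libraries and 0.59 with the GC offset). SOX6, a related factor, is not a member of the list and was named by its response class. It averaged 1.5 ± 0.266, 4.25 ± 0.826, 1.45 ± 0.436 and 8.77 ± 1.06 CPM in the order DMSO, ipatasertib, tazemetostat and combination (departure 1.08 ± 0.28, adjusted p = 0.0354; 1.14 with 10 libraries and 1.15 with the GC offset). FOXC1, a forkhead factor, reached 35.7 ± 1.52 CPM with the combination against 26.2 predicted (departure 0.45 ± 0.11, adjusted p = 0.0245; 0.50 with 10 libraries and 0.39 with the GC offset), and HOXC13 39.9 ± 2.42 against 26.3 (departure 0.60 ± 0.10, adjusted p = 0.00224; 0.73 with 10 libraries and 0.53 with the GC offset). The SOX6 call was lost without any DMSO library, ipatasertib B or C, tazemetostat C or combination C, and the FOXC1 call without DMSO B or C, ipatasertib A or B, tazemetostat B or C, or combination C.

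Of 30 NF-kB and inflammatory cytokine genes 2 were called above and 3 below, with a median of 0.14. The counts were 9 and 4 in 10 libraries, where 14.7% of all genes were called below, and 5 and 3 with the GC offset. The count above was 6 without tazemetostat A and 7 without combination B. IL6, an inflammatory cytokine, stood at 31.1, 34.9 and 35.8 CPM for DMSO, 24.9, 25.2 and 22.8 for ipatasertib, 53.9, 51.7 and 57.6 for tazemetostat and 17.4, 22.4 and 19.1 for the combination. The tazemetostat libraries were the highest and the combination libraries the lowest, with no overlap between groups. Tazemetostat raised IL6 by 0.68 without ipatasertib and lowered it by 0.31 in its presence (adjusted p = 0.00887), a departure of -0.99 ± 0.12 (adjusted p = 6.57e-05; -1.09 with 10 libraries and -0.98 with the GC offset). IL1A, an alarmin of the interleukin-1 family, had the same order, with 16.2 ± 1.24 CPM for DMSO, 9.46 ± 0.221 for ipatasertib, 22.5 ± 0.853 for tazemetostat and 8.13 ± 1.06 for the combination (departure -0.69 ± 0.13, adjusted p = 0.00538; -0.74 with 10 libraries and -0.58 with the GC offset).

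IL24, a cytokine of the interleukin-10 family, was raised by each inhibitor, from 1.31, 1.71 and 1.54 CPM to 3.09, 3.38 and 3.04 with ipatasertib and 3.82, 4.14 and 2.63 with tazemetostat, and stood at 2.83, 2.23 and 1.96 with the combination. The combination lay above DMSO and overlapped with tazemetostat (departure -1.67 ± 0.27, adjusted p = 0.00109; -1.56 with 10 libraries and -1.68 with the GC offset). IL33, a nuclear alarmin, reached 62.6 ± 10.5 CPM against 127 predicted (departure -1.03 ± 0.13, adjusted p = 0.000124; -1.22 with 10 libraries and -0.86 with the GC offset). BIRC3, an inhibitor of apoptosis induced by NF-kB, stood at 14.3 ± 0.622 CPM with DMSO and 14.0 ± 0.966 with the combination but was lower with each inhibitor alone (departure 0.83 ± 0.13, adjusted p = 0.000841; 0.72 with 10 libraries and 1.01 with the GC offset). ICAM1, a leukocyte adhesion receptor, had a departure of 0.47 ± 0.08 (adjusted p = 0.00249; 0.52 with 10 libraries and 0.41 with the GC offset) and LIF, a cytokine of the interleukin-6 family, one of 0.72 ± 0.17 (adjusted p = 0.019; 0.92 with 10 libraries and 0.66 with the GC offset), which was lost without DMSO A or B, ipatasertib A, tazemetostat C or combination C. GBP2, an interferon-induced GTPase and the 1 of 38 interferon-stimulated genes called with 12 libraries, stood at 3.65 ± 0.327, 26.5 ± 1.12, 6.71 ± 0.524 and 81.5 ± 4.98 CPM in the order DMSO, ipatasertib, tazemetostat and combination (departure 0.74 ± 0.13, adjusted p = 0.00199; 0.65 with 10 libraries and 0.76 with the GC offset). In the interferon-stimulated list 5 were called above and 4 below with 10 libraries, and 1 above and 6 below with the GC offset. Without combination B 3 were below.

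Among metabolic genes, cholesterol synthesis had 4 of 23 called below and 1 above, with a median of -0.17. The counts were 8 below and 3 above with 10 libraries, where 17.1% of all genes were called above, and 7 and 1 with the GC offset. HMGCS1, which makes the substrate of HMG-CoA reductase, stood at 41.5, 40.4 and 41.6 CPM for DMSO, 42.1, 40.7 and 41.2 for ipatasertib, 77.0, 85.8 and 82.3 for tazemetostat and 48.2, 54.2 and 50.4 for the combination. Ipatasertib alone overlapped with DMSO, and in the presence of tazemetostat it lowered HMGCS1 by 0.68, a departure of -0.69 ± 0.09 (adjusted p = 0.000124; -0.76 with 10 libraries and -0.60 with the GC offset). IDI1, an isomerase later in the pathway, averaged 83.7 ± 7.18 CPM against 117 predicted (departure -0.49 ± 0.11, adjusted p = 0.0168; -0.63 with 10 libraries and -0.41 with the GC offset). The IDI1 call was lost without DMSO A, ipatasertib A, tazemetostat B or C, or combination C. The counts below were 2 without ipatasertib A or B or tazemetostat B or C.

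PSAT1, an enzyme of serine synthesis and the 1 of 25 genes of the ATF4 and amino acid response called with 12 libraries, stood at 106, 126 and 111 CPM with the combination against 154 to 220 elsewhere (departure -0.51 ± 0.09, adjusted p = 0.00256; -0.58 with 10 libraries and -0.45 with the GC offset). The counts for that list were 3 above and 6 below with 10 libraries and 1 above and 6 below with the GC offset. Those below were 4 without combination B and 2 without tazemetostat A. HSPE1, the mitochondrial co-chaperonin, averaged 5.48 ± 0.885 CPM against 8.56 predicted (departure -0.64 ± 0.16, adjusted p = 0.0282; -0.57 with 10 libraries and -0.68 with the GC offset). Its gene has processed copies in the genome, so its count is uncertain, and its call was lost without any DMSO library, ipatasertib A or C, or tazemetostat B or C. With all 12 libraries no member was called among 13 fatty acid synthesis, 18 glycolysis, 24 ribosome biogenesis, 6 milk and alveolar secretion, 23 antigen presentation or 28 autophagy and lysosome genes, or among 11 markers of other cell types. With 10 libraries, where 17.1% of all genes were called above and 14.7% below, members of these lists were called: 4 above and 2 below for fatty acid synthesis, 3 and 1 for glycolysis, 5 and 4 for ribosome biogenesis, 1 and 0 for milk and alveolar secretion, 4 and 2 of 22 for antigen presentation, 11 and 1 for autophagy and lysosome, and 1 and 1 of 12 for the other cell types. With the GC offset the called members numbered 1 of 13, 3 of 18, 2 of 24, 1 of 6, 1 of 23, 4 of 28 and 1 of 11, against 12.4% of all genes. Autophagy and lysosome genes called above numbered 8 without combination B and 3 without tazemetostat A, where 1325 and 547 of all genes were called above. The ribosome biogenesis genes were mostly lower with ipatasertib, with a median of -0.61 without tazemetostat and -0.68 with it, and a median departure of -0.05.

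**Figure D5:**
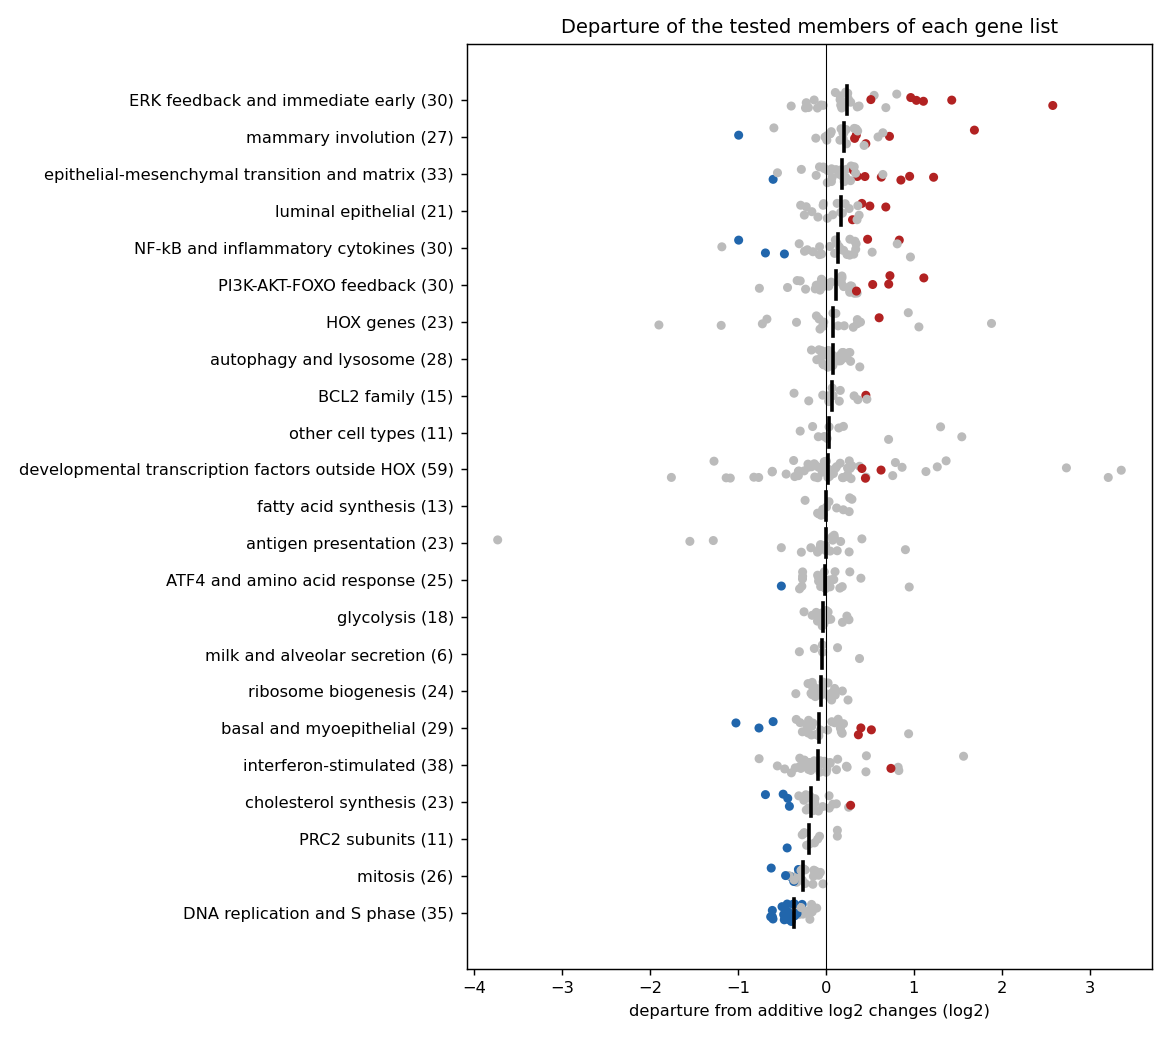
Departure (log2) of each tested member of the 23 gene lists, with the number of members in brackets, called members in red (above) or blue (below) and list medians as bars. The medians ran from -0.36 for DNA replication and S phase to 0.23 for ERK feedback and immediate early genes, against 0.001 for all genes tested.

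The remaining genes named by size within their class had low levels. MEST, an imprinted gene of the hydrolase family, stood at 4.80, 5.11 and 5.89 CPM for DMSO, 1.71, 1.18 and 2.22 for ipatasertib, 9.64, 9.58 and 10.5 for tazemetostat and 1.54, 1.97 and 0.926 for the combination, which overlapped with ipatasertib (departure -1.15 ± 0.28, adjusted p = 0.0262; -1.41 with 10 libraries and -1.15 with the GC offset). CLCN5, an endosomal chloride transporter, averaged 6.45 ± 0.92 CPM with tazemetostat and 3.72 ± 0.463 with the combination (departure -1.02 ± 0.20, adjusted p = 0.00629; -1.19 with 10 libraries and -0.97 with the GC offset), and FAM81A 2.73 ± 0.15 and 1.58 ± 0.0561 (departure -1.11 ± 0.26, adjusted p = 0.019; -1.08 with 10 libraries and -1.05 with the GC offset). ZNF215, a zinc finger gene, had a departure of -0.60 ± 0.16 (adjusted p = 0.0438; -0.75 with 10 libraries and -0.52 with the GC offset), and ATP6V1C2, a subunit of the vacuolar proton pump, one of 1.36 ± 0.33 (adjusted p = 0.0252; 1.12 with 10 libraries and 1.37 with the GC offset). MEST lost its call without DMSO A or B, ipatasertib A or C, tazemetostat B or C, or combination C, and FAM81A without DMSO B, ipatasertib B or combination C. ZNF215 lost it without DMSO A or B, any ipatasertib library, tazemetostat B or C, or combination A or C, and also with limma voom. ATP6V1C2 lost it without DMSO B or C, ipatasertib A or B, tazemetostat B or C, or combination C.

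For some genes the presence of 1 inhibitor turned the direction of the other. Counting genes whose change was called in both settings with opposite signs and whose departure was called, ipatasertib lowered 31 genes alone and raised them with tazemetostat, and did the opposite for 18. Tazemetostat lowered 39 alone and raised them with ipatasertib, and did the opposite for 55. Ipatasertib changed TNFRSF19 by -0.55 alone (adjusted p = 0.000632) and by 1.25 with tazemetostat (adjusted p = 1.43e-09). It changed THBD by -0.32 and 1.09, CYP4F3 by -0.60 and 0.53, and IL24 by 1.07 and -0.60 in the same settings. S1PR1 and BIRC3 turned for both inhibitors, with changes for ipatasertib of -0.89 and 0.47 in S1PR1 and of -0.51 and 0.32 in BIRC3.

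Additivity depends on the scale. On linear CPM, where changes add rather than multiply, 530 of the 539 called genes had the same sign of departure, 1 gene above on the log2 scale lay below and 8 genes below lay above. Among the 52 genes chosen by rule the sign differed for KRT5, whose linear departure was 60.7 ± 23.4 CPM (SE) against a predicted level of -6.05 CPM, below 0. For the other 51 the sign was the same, for example 233 ± 20.5 CPM for IGFBP5 and -25.1 ± 2.78 CPM for IL6.

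The genes whose 12 log2 levels were most like those of the largest departures were found by Pearson's r over the 12 libraries. For ITGB3 they were EGR2 (r = 0.963), CD44 (0.962) and ZNF697 (0.956), and for TNFRSF19 they were TMEM100 (0.969), THBD (0.969) and AFAP1L2 (0.967). For IL24 they were EPAS1 (0.9), ETV5 (0.887) and SHMT1 (0.854), and for MEST they were YY1 (0.98), PTPDC1 (0.976) and CENPA (0.974). These 12 values share their libraries and are a description.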

How the data were processed

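Gene counts of 12 libraries of polyadenylated RNA were used as the authors deposited them, under the gene symbols of the files. The submitters' processing notes name the build hg19 and the tools STAR, HTSeq, SAMtools and DESeq2. Their versions, the gene annotation and whether strand was used were not given in the sources used here, so reads of overlapping or antisense genes cannot be told apart. The 5 summary lines per file were left out and held 29.8% to 38.6% of a library's reads. Counts were analysed in R 4.3.3 with edgeR 4.0.16 (filterByExpr, TMM scaling, 1 quasi-likelihood fit over 4 groups with no block). The interaction contrast was tested against 0 and, with glmTreat, against 1.5-fold, with Benjamini-Hochberg adjustment over all genes tested and a threshold of 0.05. SE is the absolute log2 value divided by the square root of F. CPM are TMM-scaled unless stated. A predicted level is the ipatasertib mean times the tazemetostat mean divided by the DMSO mean. Scripts were tested on simulated data.

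The alternatives were other scalings and filters, a replicate block, limma 3.58.1 voom, DESeq2 1.42.0 and leaving out libraries. The GC offset, a lowess curve (span 0.3) per library on GC content of the longest GENCODE transcript per symbol (14181 of 14874 genes, 95.3%), was added after the data were seen. Genes called in the same direction with 12 and with 10 libraries, at 1 CPM or more in each group, were eligible by class or size. Of these, the 2 largest departures in each of 12 response classes and the 5 largest each way were named. Up to 2 members per list and direction called with 12 libraries were added, with no minimum CPM and no condition on the fit with 10 libraries. Some of the 52 genes so chosen are not reported here. The members and lists were chosen with earlier results of these data known. RefSeq promoters were matched by symbol and older symbols for 30 of 35 S phase and 21 of 26 mitosis genes. The counting of promoters rather than genes was also settled after first shares were seen. Coordinates other than those promoters are not given.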

Additional observations from a re-analysis of the deposited data

Results flagged for a closer look

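The change with 1 inhibitor differed according to whether the other was present for 539 of 14874 genes, by the interaction term of the edgeR fit at an adjusted p below 0.05; 278 lay above additivity and 261 below. The groups hold 3 libraries each, too few for a test of single outlying libraries.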

How the results depend on the processing

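Of 1142 values of the 52 named genes under alternatives, 1026 stayed past the threshold, 116 kept their direction but missed it, and 0 reversed. Of these genes, 35 were called in every alternative that gave a value. For the 24 genes named by class or size, the call without tazemetostat A and combination B was part of the rule. DESeq2 gave an adjusted p for 50 of the 52. Called genes numbered 539 (278 above, 261 below, 16 past 1.5-fold). Without tazemetostat A and combination B they were 4766 (2565, 2201 and 28), with the GC offset 1841 (880, 961 and 27), and with both 2624 (1263, 1361 and 29). The cause of these moves was not tested. With DESeq2 they were 943 (428 and 515). With no filter on low counts 905 were called (304 and 601, so 33.6% above), and with total-count scaling 777 (216 and 561). Leaving out each replicate in turn gave 243 to 2443 called, 150 to 1325 above, 93 to 1118 below and 7 to 22 past 1.5-fold. RLE scaling, a minimum of 1 CPM and voom gave 529, 564 and 532. The 1.5-fold test was not run with DESeq2 or voom.

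With the replicate letter as a block 753 genes were called, 361 above and 392 below, and 16 passed 1.5-fold; all 52 named genes stayed past the threshold. The labels do not say whether the letters pair the libraries. In genes with a mean above 5 CPM, same-letter deviations correlated from -0.308 to 0.639, above 0.1 in 6 of 18 pairs. Deviations of different letters correlated from -0.704 to 0.527, and 5 of 12 libraries correlated best with their own letter. These values cannot decide on pairing, since deviations of single libraries followed GC content. Counting error limits low genes such as EGR2 and ATP6V1C2.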
